A study of Mus musculus with 24 samples.

Results

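Albumin, other plasma carriers and the fetuins include some of the most abundant messages of the liver, and 8 of these genes are described here in 24 young mice fed 1 of 2 sugars. They are Alb (serum albumin), Gc (vitamin D binding protein), Afm (afamin), Afp (alpha-fetoprotein), Ttr (transthyretin), Rbp4 (plasma retinol binding protein), Ahsg (fetuin-A) and Fetub (fetuin-B). They were chosen by name, as plasma carriers and fetuins that hepatocytes secrete constitutively, with earlier results of these data known. All 8 were found among the 37074 gene names on the array. All 8 also passed the filter on dim probes, as did 18649 gene names in all. The mice were of the inbred strain C57BL/6JRcc, labelled female, and housed singly. From 3 weeks of age they ate a semi-synthetic diet with 16% of its energy from fat, 20% from protein, 32% from starch and 32% from monosaccharides. In the GLU+GAL diet (12 mice) the monosaccharides were glucose and galactose in equal parts, and in the GLU diet (12 mice) they were glucose alone. At postnatal day 42, at 6 weeks of age, the mice were killed in the light phase after food had been withdrawn, and RNA from the right liver lobe was put on arrays. The values are log2 ratios of each mouse (Cy5 dye) over a pool of all mice (Cy3 dye), where 0 is equal normalised signal in both dyes. It need not be the level of the pool for a given probe. The mean over the 24 mice was 0.98 for Alb and -0.36 for Fetub. The question put to these genes is whether secreted plasma proteins as a class were lower on galactose.

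Hepatocytes make most plasma proteins, which enter the secretory pathway through a signal peptide and leave the cell without being stored. Albumin, vitamin D binding protein, afamin and alpha-fetoprotein descend from 1 ancestral gene and bind fatty acids, sterols and other hydrophobic ligands in plasma. Alpha-fetoprotein is the fetal counterpart of albumin and is silenced in the liver after birth. Transthyretin carries thyroxine and holds retinol binding protein in the circulation, while the fetuins are cystatin-like proteins. Several of these proteins, albumin and transthyretin among them, are known as negative acute phase proteins, since their synthesis drops in inflammation.

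The 4 genes of the albumin family lie on mouse chromosome 5. In the RefSeq table (build GRCm38.p6) Gc spans chr5:89417511-89457898, on the minus strand, Alb chr5:90460870-90476602, Afp chr5:90490714-90508907 and Afm chr5:90518949-90553544. The fetuin genes are neighbours on chromosome 16, Ahsg at chr16:22892015-22899451 and Fetub at chr16:22918382-22939768, and Rbp4 lies at chr19:38116620-38125321. The last 150 bases before each transcription start, read on the gene's strand from RefSeq, are shown so that the promoters of the 4 family members can be compared, with the TATA box word TATAAA, which helps to place the start, in capitals.
Gc, chr5:89457899-89458048, minus strand: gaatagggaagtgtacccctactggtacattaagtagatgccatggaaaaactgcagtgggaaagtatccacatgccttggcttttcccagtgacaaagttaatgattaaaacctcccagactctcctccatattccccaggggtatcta
Alb, chr5:90460720-90460869, plus strand: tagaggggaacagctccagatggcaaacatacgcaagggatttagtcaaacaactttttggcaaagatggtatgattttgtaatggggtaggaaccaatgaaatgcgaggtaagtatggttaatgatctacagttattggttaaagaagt
Afp, chr5:90490564-90490713, plus strand: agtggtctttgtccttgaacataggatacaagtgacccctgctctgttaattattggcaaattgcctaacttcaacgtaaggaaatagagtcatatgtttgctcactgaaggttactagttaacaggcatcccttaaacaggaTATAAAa
Afm, chr5:90518799-90518948, plus strand: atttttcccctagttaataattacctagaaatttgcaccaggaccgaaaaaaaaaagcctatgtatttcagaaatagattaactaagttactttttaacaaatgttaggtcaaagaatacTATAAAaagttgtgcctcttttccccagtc
The word began 7 bases before the listed start in Afp and 30 in Afm, and it was on neither strand of the windows of Alb and Gc. It was also found in 1 of 2 promoter windows each of Fetub and Rbp4, 31 and 28 bases before the start, and not in the window of Ahsg, and no promoter of Ttr was matched. Of all 32851 promoter windows in the table, 13.6% held the word on either strand within 250 bases before to 50 after the start, and 7.57% within the stretch of 150 bases. The word was chosen with the sequences in view, and a match is a description and not a binding site.

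The arrays carried these genes far above background, with 1 exception. By mean Cy5 signal Alb ranked 2 among the 18649 genes, Ahsg 12, Rbp4 19, Ttr 22 and Gc 51, while Afm ranked 679 and Fetub 732. Afp ranked 13964, with a mean Cy5 signal of 146 in GLU+GAL livers and 135 in GLU livers, over a mean local background of 35.9, so at this age its probe sat just above background although it was well above background on all 24 arrays by the scanner's criterion. Signals of different probes are not comparable as amounts of RNA, and a spot of Alb was saturated on 1 array. Each of the 3 slides held 4 GLU+GAL and 4 GLU arrays. On 1 array, GLU+GAL 4, the pool channel stood apart, with a median correlation of 0.992 with the pool channel of the other arrays, against a median of 0.998 over all arrays. The liver labelled GLU+GAL 12 went against its label, with Eif2s3y and Ddx3y, genes of the Y chromosome, well above background and Xist not. Without both mice the median difference of the 8 genes was -0.072, against -0.089 with them. In either case 7 of 8 were lower, where 54.5% of all tested genes were without them and 49.2% with them.

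No member passed the test between the diets. In limma's moderated test over all 18649 genes no gene at all reached an adjusted p under 0.05 (Benjamini-Hochberg, background 0%), the lowest being 0.523, and 803, or 4.31%, had an unadjusted p under 0.05. Each member had an adjusted p of 0.999, so the differences that follow are measured values and none of them is a call. In whole liver, fewer cells of a type and less RNA per cell cannot be told apart.

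**Figure D1:**
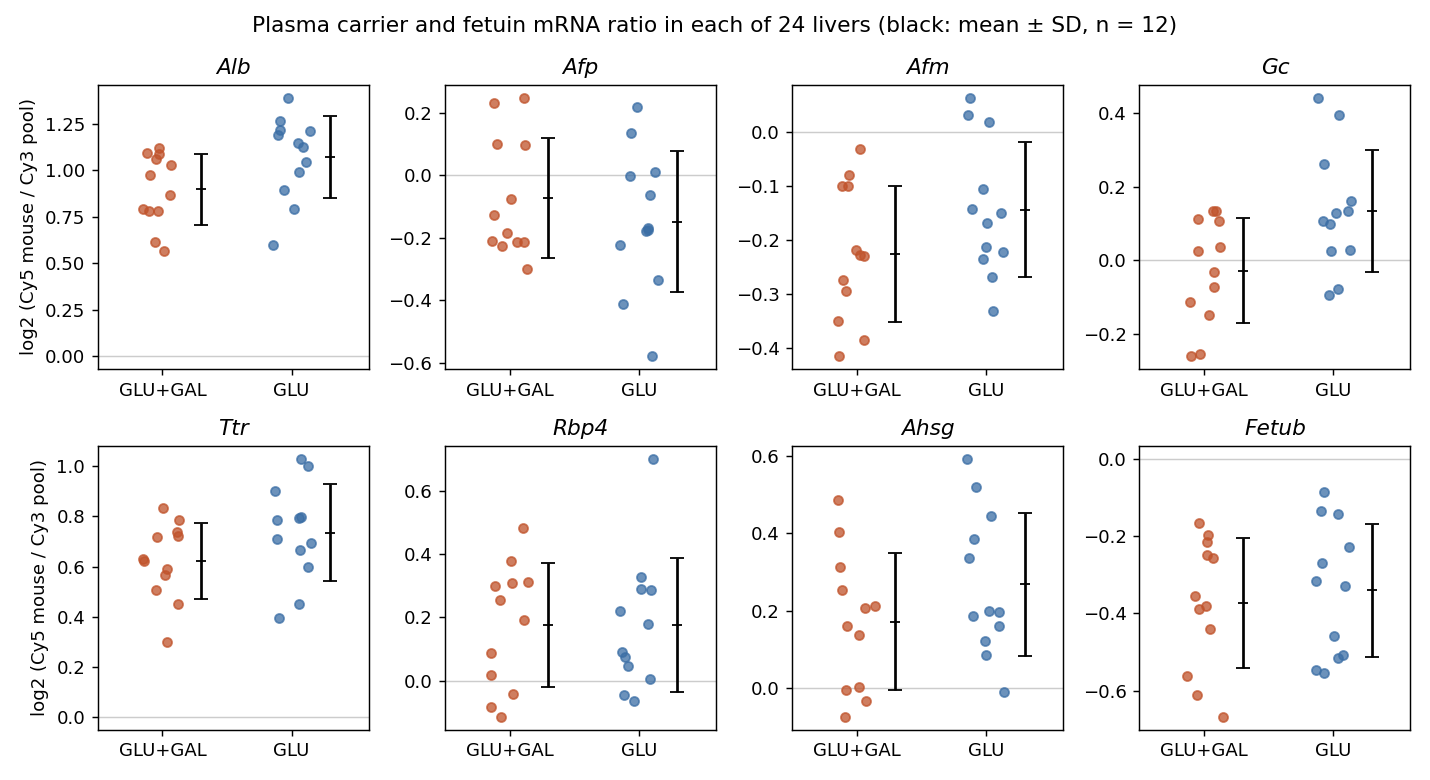
The log2 ratio of each mouse over the pool is plotted for the 8 genes (vertical axis; 1 point per mouse), with GLU+GAL left of GLU and the mean ± SD of 12 mice in black. Alb and Gc show the widest gap between the diet means, and in each panel the ranges of the diets overlap.

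Of the albumin family, Alb and Gc had the lowest means on galactose relative to glucose. The log2 ratio of Alb had a lowest value of 0.57, a median of 0.92 and a highest value of 1.12 in GLU+GAL livers, against 0.60, 1.13 and 1.39 in GLU livers. It averaged 0.90 ± 0.19 in GLU+GAL livers and 1.07 ± 0.22 in GLU livers (SD, n = 12 each), a difference of -0.17 ± 0.08 (SE), or 0.886-fold, with an unadjusted limma p of 0.0411. In 9 of 12 GLU+GAL livers Alb lay below the GLU mean, and the ranges overlapped over most of their length. Since the pool was made from these same mice, and since the dyes were not swapped, a log2 ratio near 1 in both diets was not read as a level above the pool.

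Gc encodes the carrier of vitamin D metabolites, which also scavenges actin. Its log2 ratio had a lowest value of -0.26, a median of -0.0039 and a highest value of 0.13 in GLU+GAL livers, against -0.09, 0.12 and 0.44 in GLU livers. The means were -0.03 ± 0.14 in GLU+GAL livers and 0.13 ± 0.17 in GLU livers, and their difference was -0.16 ± 0.06 (SE), with an unadjusted limma p of 0.0169, the smallest of the 8. In 10 of 12 GLU+GAL livers Gc lay below the GLU mean.

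Afamin is a carrier of vitamin E and of Wnt proteins. Afm, as a log2 ratio, had a lowest value of -0.42, a median of -0.23 and a highest value of -0.03 in GLU+GAL livers, against -0.33, -0.16 and 0.06 in GLU livers. Its difference was -0.08 ± 0.05 (SE) with an unadjusted limma p of 0.141. Afp was the only member with a higher mean on galactose. Its log2 ratio had a lowest value of -0.30, a median of -0.16 and a highest value of 0.25 in GLU+GAL livers, against -0.58, -0.17 and 0.22 in GLU livers, and the difference was 0.08 ± 0.08 (SE) with an unadjusted limma p of 0.370. The medians of Afp in both diets lay close together, and 6 of 12 GLU+GAL livers were above the GLU mean.

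Ttr and Rbp4 encode proteins that circulate as a complex. In Ttr the log2 ratio had a lowest value of 0.30, a median of 0.63 and a highest value of 0.83 in GLU+GAL livers, against 0.40, 0.75 and 1.03 in GLU livers, a difference of -0.11 ± 0.07 (SE) with an unadjusted limma p of 0.118. In Rbp4 the log2 ratio had a lowest value of -0.11, a median of 0.22 and a highest value of 0.48 in GLU+GAL livers, against -0.06, 0.13 and 0.70 in GLU livers. The difference of Rbp4 was -0.0012 ± 0.08 (SE), with a 95% interval from -0.17 to 0.16 and an unadjusted limma p of 0.988. Means of 0.175 in GLU+GAL livers and 0.176 in GLU livers stood beside a median that was higher in GLU+GAL livers, and the highest value of all was that of GLU 7. Whether Ttr and Rbp4 differ from each other in their response to diet was not tested.

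Of the fetuins, Ahsg encodes the mineral-binding fetuin-A and Fetub a protease inhibitor known for its role in fertilisation. The log2 ratio of Ahsg had a lowest value of -0.08, a median of 0.18 and a highest value of 0.49 in GLU+GAL livers, against -0.01, 0.20 and 0.59 in GLU livers, with a difference of -0.10 ± 0.07 (SE) and an unadjusted limma p of 0.195. Fetub, on the same scale, had a lowest value of -0.67, a median of -0.37 and a highest value of -0.17 in GLU+GAL livers, against -0.55, -0.32 and -0.09 in GLU livers, with a difference of -0.03 ± 0.07 (SE) and an unadjusted limma p of 0.632. For both genes the diets overlapped over nearly all of their ranges.

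Over the 8 genes, 7 had a lower mean in GLU+GAL livers, where 49.2% of all tested genes did, and 2 (Alb and Gc) also had an unadjusted p under 0.05, where 2.66% of all tested genes did in that direction. The median difference of the 8 was -0.089, beside 0.0013 over all genes. Genes of different brightness are not alike in this measure, as the values below show, so these counts are a description. The pooled SD within diets was 0.21 for Alb, Afp and Rbp4 (0.2049 for Rbp4), 0.18 for Ttr and Ahsg, 0.17 for Fetub, 0.15 for Gc and 0.13 for Afm. Among all tested genes the median SD was 0.17, and the spread of Alb stood at percentile 71.6 and that of Afm at percentile 19.4. This is the spread of the ratio, which holds the pool channel too. On the percentile scale the pool channel's SD over the 24 arrays was above that of the mouse channel for Alb, Ttr, Ahsg and Rbp4. It was 0.183, 0.164, 0.179 and 0.121 for these, against 0.105, 0.120, 0.111 and 0.102 in the mouse channel. For Gc, Afp, Afm and Fetub the pool channel had the lower SD, at 0.115, 0.086, 0.057 and 0.071. The mouse channel had 0.139, 0.271, 0.130 and 0.149 for these genes.

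The differences were not shared by the 3 slides. Within slide 1 the difference was 0.0030 for Alb, 0.04 for Gc, 0.01 for Ahsg and -0.08 for Ttr. There 2 of the 8 genes were lower in GLU+GAL livers, where 51.8% of all tested genes were. Within slide 2 it was -0.28 for both Alb and Gc, -0.22 for both Ttr and Rbp4 and -0.18 for Ahsg. Within slide 3 it was -0.24 for Alb, -0.25 for Gc, -0.11 for Ahsg and 0.12 for Rbp4. The median of the 8 was thus 0.017 within slide 1, -0.200 within slide 2 and -0.118 within slide 3. Each slide held 4 mice per diet.

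Other probes of the same genes gave a second reading. The second probe of Alb, also bright, differed by -0.15 ± 0.08 (SE; unadjusted limma p of 0.0607) and correlated with the main one at r = 0.80 over the 24 mice. The second probe of Ttr, with a mean Cy5 signal of 13226 against 273100 for the main one, differed by -0.0004, and the probes correlated at r = 0.45. The second probe of Afm was close to background, with a mean Cy5 signal of 125, differed by -0.02 and correlated at r = 0.12. The dimmer probes of Ttr and Afm thus lay closer to 0, and whether the probes of a gene differ was not tested.

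**Figure D2:**
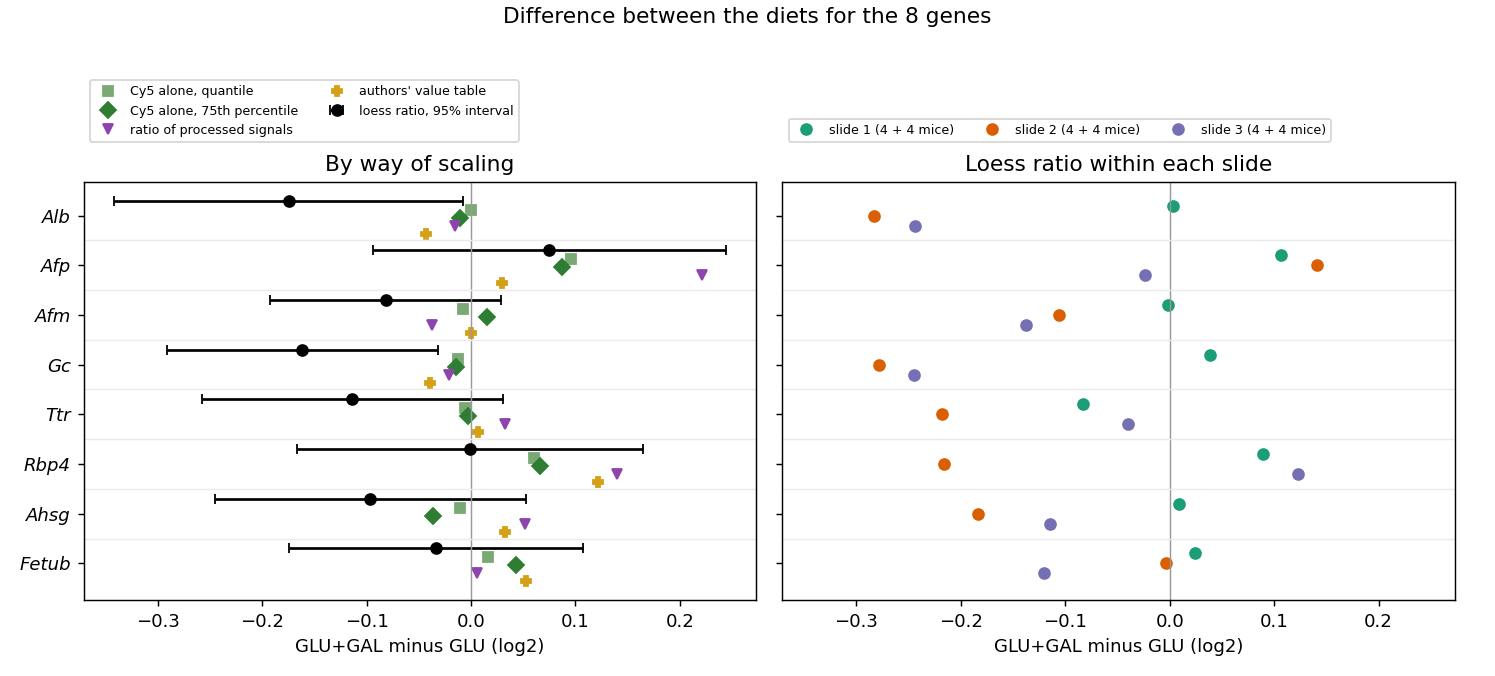
The difference between the diets (horizontal axes, GLU+GAL minus GLU, log2) is shown for the 8 genes, left by way of scaling, with the 95% interval of the loess ratio, and right within each slide of 4 + 4 mice. The loess ratios of Alb and Gc lie at -0.17 and -0.16, while their values in the Cy5 channel alone lie near 0, and slide 1 shows no lower value for either.

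The differences also depended on the scaling. With both channels kept and each array's ratios centred on their median instead of loess, the difference was -0.06 for both Alb and Gc. The median of the 8 was then -0.00092 and 4 of 8 were lower, where 51.4% of all tested genes were. Readings of the Cy5 channel alone changed both the channel and the normalisation, so those choices cannot be told apart in them. With the Cy5 channel scaled to each array's 75th percentile, the difference was -0.01 for both Alb and Gc, -0.0034 for Ttr, -0.04 for Ahsg, 0.02 for Afm, 0.04 for Fetub, 0.07 for Rbp4 and 0.09 for Afp. The pool channel, the same RNA on all arrays, scaled in the same way differed between the arrays of the diets by 0.04 for Alb and 0.04 for Gc, by -0.05 for Ahsg and by 0.0009 for Ttr. The median of the 8 was 0.0060 in this Cy5 reading, and 4 of 8 were lower in GLU+GAL livers, where 48.4% of all tested genes were. With quantile normalisation of the Cy5 channel the difference of Alb was 1.93e-05 and that of Gc -0.01, but quantile normalisation gives the brightest ranks nearly the same value on each array, and Alb then had an SD of 0.0429 over the 24 mice, against 0.105 with percentile scaling. In the authors' deposited table the median difference of the 8 was 0.018, with -0.04 for both Alb and Gc. With each spot's mean over the arrays subtracted, the columns of that table correlated positively with Cy5 and negatively with Cy3. For GLU+GAL 4 these r were 0.61 and -0.85, so the deposited table was not taken as a reading of Cy5 alone.

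**Figure D3:**
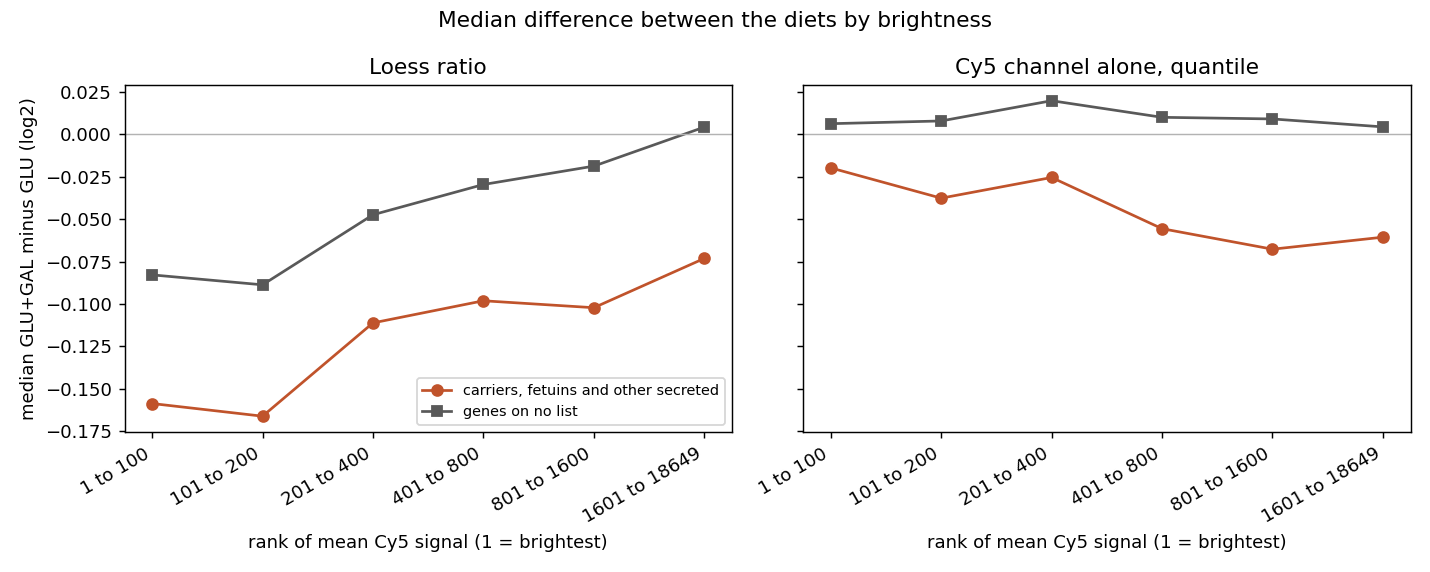
The median difference between the diets (vertical axis, GLU+GAL minus GLU, log2) is plotted by rank of mean Cy5 signal for the 8 members and other secreted genes together (circles) and for genes on no list (squares), left in loess ratios and right in the Cy5 channel alone after quantile normalisation. In ratios the 200 brightest genes lie lowest in both groups, and in the Cy5 channel alone genes on no list lie near 0 throughout.

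In loess ratios over all slides, bright genes on no list were lower on galactose as well. Among the 100 brightest genes, the 70 that were on no list of this report had a median difference of -0.083 and 88.6% of them were lower in GLU+GAL livers, against 47.3% of the genes on no list beyond rank 1600. The 25 members and other secreted genes in the same range of brightness had a median of -0.159, and all 25 were lower. In the Cy5 channel alone after quantile normalisation the medians in that range were -0.020 for the secreted genes and 0.006 for those on no list. The mean ratio of the 200 brightest genes on no list was 0.24 ± 0.11 in GLU+GAL livers and 0.31 ± 0.12 in GLU livers (SD, n = 12 each). For these 200 genes the median difference was -0.069 with 169 lower in loess ratios, where 49.2% of all tested genes were lower. It was 0.018 with 65 lower in ratios centred on each array's median without loess, where 51.4% of all tested genes were. Within slides, in loess ratios, the median of the 200 was 0.035 in slide 1, with 68 lower. It was -0.224 in slide 2, with 181 lower, and 0.0054 in slide 3, with 93 lower. Of all tested genes 51.8%, 54.7% and 42.2% were lower in slides 1, 2 and 3, with medians of -0.0048, -0.015 and 0.025. The part of this brightness shift in the differences of the members was not tested.

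The other secreted plasma proteins were then set beside the members. Their lists, like the members, were chosen with earlier results of these data known, so the counts are a description. Of 116 genes on 8 lists, 103 had a lower mean ratio in GLU+GAL livers, where 49.2% of all tested genes did, with a median of -0.114. At an unadjusted limma p under 0.05 there were 47 lower genes, where 2.66% of all tested genes were lower, and 0 higher ones, where 1.65% were higher. That count of 47 was 7 with median centring, 8 with Agilent's processed signals and 8 in the authors' deposited table. It was 11 in the Cy5 channel with percentile scaling and 15 in the quantile-normalised Cy5 channel. The shares of all tested genes lower at that p were 1.42%, 0.987%, 1.67%, 1.89% and 2.09% in these readings, in the same order. None passed the adjusted test. Of 40 intracellular hepatocyte enzymes, 19 were lower and the median was 0.0023, and of 35 genes of the secretory machinery, 17 were lower and the median was 0.010. In loess ratios the enzymes and the export machinery thus had means on both sides of 0. Fewer enzymes were lower in the other readings. The counts were 11 with median centring, 10 with Agilent's processed signals and 8 in the authors' deposited values. They were 9 in percentile-scaled Cy5 and 12 in quantile-normalised Cy5. Of all tested genes 51.4%, 32.7%, 44.2%, 48.4% and 46.7% were lower in these readings, in the same order. In the Cy5 readings the machinery's median was 0.047 and 0.042.

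**Figure D4:**
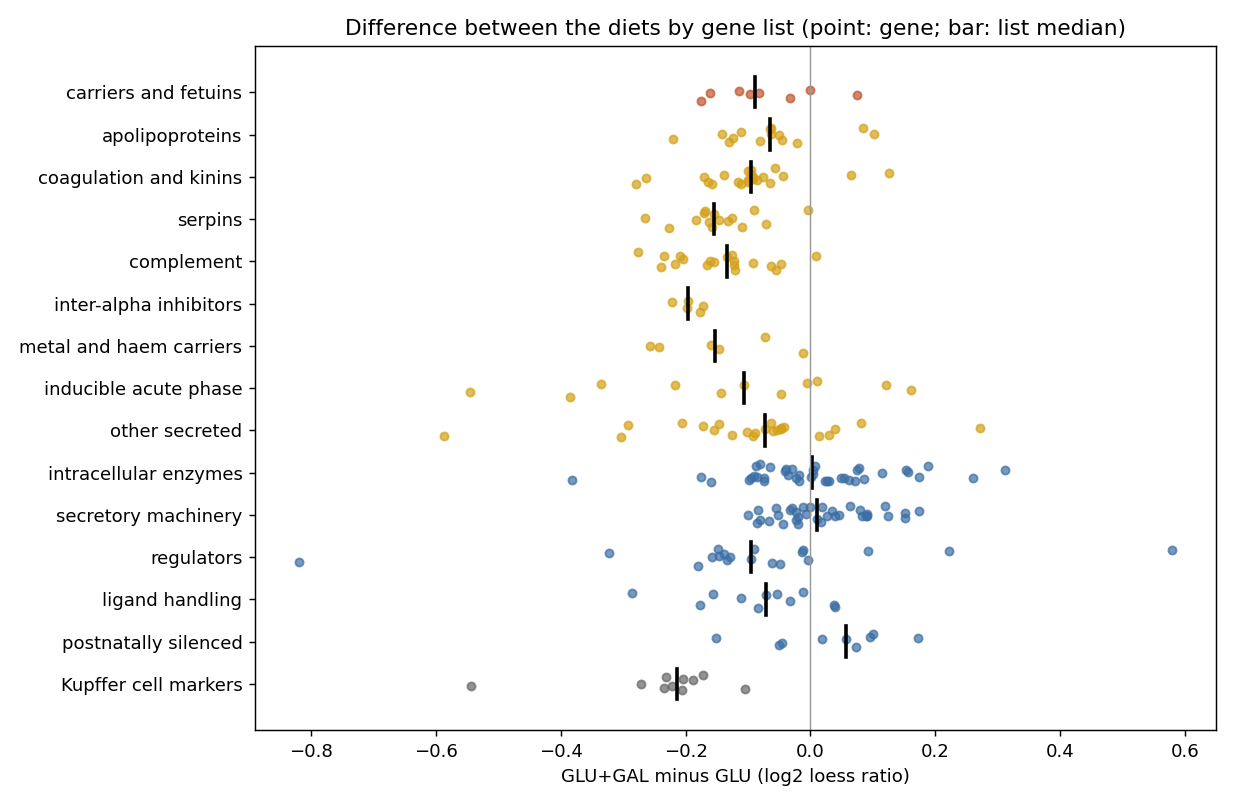
Each point is the difference of a gene between the diets (horizontal axis, GLU+GAL minus GLU, log2 loess ratio) and each bar the median of its list, with the carriers and fetuins at the top. All 15 serpins, all 5 inter-alpha inhibitor genes and all 6 metal and haem carriers lie below 0, while intracellular enzymes and secretory machinery lie on both sides of it.

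By role, the inter-alpha inhibitor genes, whose products stabilise hyaluronan, had the lowest median, -0.197, with 5 of 5 at an unadjusted p under 0.05. Ambp differed by -0.20 and Itih4 by -0.22, and Itih1 by -0.18. All 15 serpins were lower (median -0.155, 9 at an unadjusted p under 0.05), among them Serping1, the inhibitor of C1, at -0.18, Serpinc1 (antithrombin) at -0.15 and Serpinf2 (alpha-2-antiplasmin) at -0.16.

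On the list of metal and haem carriers, 6 of 6 genes were lower (median -0.153). Cp (ceruloplasmin, a copper protein) differed by -0.26, Hpx (haemopexin) by -0.24 and Trf (transferrin, the iron carrier) by -0.15. Of the complement genes 18 of 19 were lower (median -0.133), with Cfb at -0.21, Cfi at -0.20 and Hc, which encodes C5, at -0.23.

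Coagulation and kinin genes were lower in 21 of 23 cases (median -0.096), with the fibrinogen chains Fga at -0.28 and Fgb at -0.26 and the kininogen Kng2 at -0.16. Apolipoproteins were lower in 12 of 14 cases (median -0.065), with Apoa1 at -0.22, Apoe at -0.12 and Apof at -0.11. Of the inducible acute phase genes 8 of 11 were lower (median -0.106), led by the serum amyloid genes Saa3 at -0.54, Saa2 at -0.39 and Saa1 at -0.33. The remaining secreted genes were lower in 18 of 23 cases (median -0.073), with Igfals, which stabilises circulating growth factor complexes, at -0.30, Ces1c at -0.21 and Vtn (vitronectin) at -0.17.

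These list medians are those of loess ratios. In the Cy5 channel with percentile scaling they were -0.099 for the inter-alpha inhibitor genes, -0.081 for complement, -0.068 for the inducible acute phase genes, -0.032 each for serpins and coagulation genes, -0.031 for metal and haem carriers and -0.021 for the remaining secreted genes, and that of the apolipoproteins was 0.0094, on the other side of 0.

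The contrast between secreted genes and intracellular enzymes was in the same direction under the other scalings run. In the Cy5 channel scaled to the 75th percentile, 88 of 116 secreted genes were lower in GLU+GAL livers, where 48.4% of all genes were, with a median of -0.037 beside 0.054 for the intracellular enzymes. In the values of the authors' deposited table, 73 of 116 were lower, where 44.2% of all genes were, with medians of -0.030 and 0.080. In both of these readings the median of the enzymes lay farther from 0 than that of the secreted genes. The difference of these medians, secreted minus intracellular, was -0.116 in loess ratios, -0.091 in the Cy5 channel with percentile scaling and -0.111 in the authors' deposited table. Within slides it was -0.021, -0.039 and -0.281 in slides 1, 2 and 3. In slide 2 the intracellular enzymes were themselves lower, with a median of -0.164, and in slide 3 they were higher, at 0.202.

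Markers of Kupffer cells, the macrophages of the liver, moved in the same direction as the secreted genes. All 10 of 10 were lower in GLU+GAL livers, where 49.2% of all tested genes were. At an unadjusted limma p under 0.05 there were 5, where 2.66% of all tested genes were lower. Their median was -0.213 in ratios and -0.213 in the Cy5 channel with percentile scaling. The per-mouse mean of the 10 ranged from -0.59 to 0.30 in GLU+GAL livers and from -0.18 to 0.77 in GLU livers, so the diets overlapped, and each marker was well above background on some arrays. Within slides 1, 2 and 3 the difference of this mean was -0.22, -0.23 and -0.26. Of 9 hepatocyte markers 3 were lower, with a median of 0.0036. Of 5 tested skeletal muscle markers 0 were lower, and their mean reached 0.80 in the mouse GLU+GAL 4, against a highest value of 0.17 in GLU livers. The median of these 5 was 0.060 in loess ratios, and -0.020 in the Cy5 channel with percentile scaling and -0.010 after quantile normalisation. GLU+GAL 4, the array whose pool channel stood apart, was also the highest for the marker lists of kidney and adrenal, pancreas and cholangiocytes. The part of RNA from these other cells in the differences was not tested.

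Arrays with a high ratio for 1 member tended to have a high ratio for others. The ratio holds the pool channel too, whose spread with percentile scaling was above that of the mouse channel for Alb, Ttr, Ahsg and Rbp4. Covariation of mice and of arrays or pool signal cannot be told apart in ratios, and the permutation test does not separate them. Of 28 pairs of members, 25 had a positive Pearson r over the 24 mice, with a median of 0.43, and 10 pairs had a permutation p, adjusted over the 28, under 0.05 (100000 resamples, 2-sided). By Spearman's rho 9 pairs passed. The closest were Alb and Ahsg, with r = 0.72 (adjusted permutation p = 0.0020) and rho = 0.69, Gc and Fetub, with r = 0.68 and rho = 0.67, and Alb and Afm, with r = 0.65 and rho = 0.65. All 10 pairs had a positive r within each diet. Without the 2 mice farthest from the median of the first gene, their r lay between 0.32 and 0.69.

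Within the slides, 7 of these 10 pairs kept a positive r in slide 1, 10 in slide 2 and 9 in slide 3. Alb and Ahsg correlated at 0.82, 0.93 and 0.56 in slides 1, 2 and 3, and Alb and Afm at -0.0012, 0.73 and 0.83. In ratios Afp had no pair past the threshold, with r between -0.05 and 0.32. In GLU+GAL livers the mouse GLU+GAL 10 was the lowest for Alb, Ttr, Rbp4 and Ahsg alike, and in GLU livers the mouse GLU 3 was the lowest for Alb, Afm, Ttr and Ahsg.

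**Figure D5:**
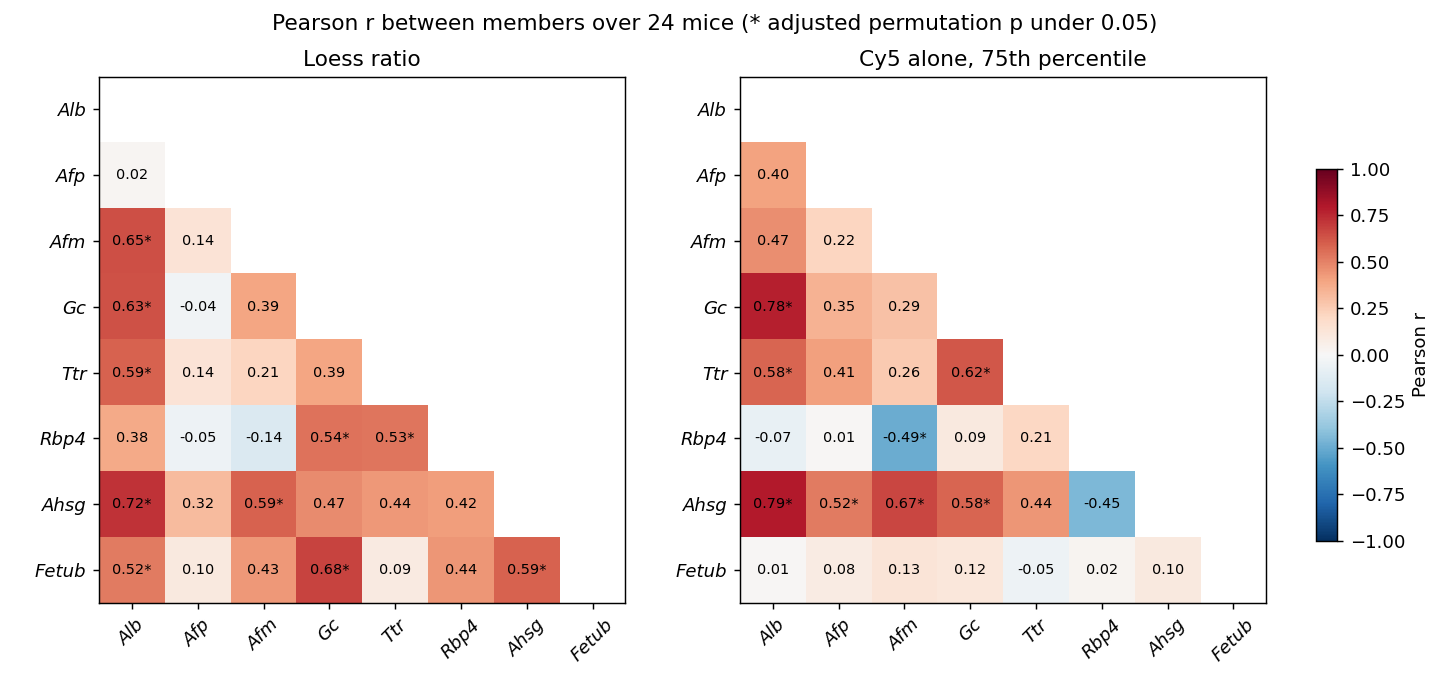
Pearson r over 24 mice is shown for each pair of the 8 genes, left in loess ratios and right in the Cy5 channel scaled to the 75th percentile, with colour from -1 to 1 and a star where the adjusted permutation p is under 0.05. Alb with Ahsg is the closest pair in both panels, at 0.72 and 0.79, while the pairs of Fetub lie near 0 on the right.

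Which pairs passed was not the same in the Cy5 readings, where both the channel and the normalisation change. In the Cy5 channel with percentile scaling 8 pairs passed, 4 of which also passed in ratios. Alb and Ahsg (r = 0.79), Alb and Gc (0.78), Afm and Ahsg (0.67) and Alb and Ttr (0.58) were those 4. The other 4 that passed in this reading were Gc with Ttr (0.62), Gc with Ahsg (0.58), Afp with Ahsg (0.52) and, as a negative correlation, Rbp4 with Afm (-0.49). Gc with Fetub was at 0.12. With quantile normalisation, which flattens the brightest ranks, 2 pairs passed, Afm with Ahsg (r = 0.63) and Alb with Ttr (r = 0.59), and by Spearman's rho none did. Members differed in how far they followed the brightness shift of the ratios, read as the per-mouse mean of the 200 brightest genes on no list. Against that mean r was 0.71 for Gc, 0.54 for Alb, 0.51 for Rbp4 and 0.46 for Ttr. It was 0.32 for Fetub, 0.29 for Ahsg, 0.20 for Afm and -0.18 for Afp. Against the per-mouse mean ratio of the other secreted genes r was 0.76 for Alb, 0.71 for Ttr, 0.70 for Gc and 0.62 for Ahsg. It was 0.49 for Afm, 0.40 for Rbp4, 0.36 for Fetub and -0.0035 for Afp. These correlations share their arrays and dyes and are descriptions.

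Over both diets together, members were not found to move against the inducible acute phase genes across mice. Of 8 correlations with the per-mouse mean of the 11 inducible genes, none passed after adjustment over the 8. For Alb r was 0.02 (adjusted permutation p = 0.932) and rho 0.06. The largest positive value was that of Ttr, with r = 0.47 (permutation p = 0.0194, adjusted 0.155) and rho = 0.40, and r was 0.21 without the 2 farthest mice. The lowest was that of Fetub, with r = -0.39 (permutation p = 0.0581, adjusted 0.233) and rho = -0.37. With the diet means subtracted, r was -0.21 for both Alb and Afm, -0.13 for Gc, -0.06 for Ahsg and -0.50 for Fetub. It was 0.39 for Ttr, 0.10 for Rbp4 and 0.06 for Afp. Within diets, Alb was at -0.15 in GLU+GAL livers and -0.29 in GLU livers. Fetub was at -0.56 in GLU+GAL livers and -0.44 in GLU livers.

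The genes whose pattern over the 24 mice was most like that of each member were read from all tested genes by Pearson r, as a description. For Alb they were Trf (0.83), Itih3 (0.79) and Scap (0.78), and for Gc they were F2 (0.88), Kng1 (0.84) and Cd81 (0.82). Afm was followed by Tuba1b (0.81) and Itih1 (0.77), and Ttr by Uba1 (0.80), Gpld1 (0.78) and Nfix (0.77). Rbp4 was followed by Zdhhc9 (0.85), Dgat2 (0.82) and Cyp2d11 (0.81), Ahsg by Pdilt (0.79), Serpina4-ps1 (0.78) and Scap (0.78), and Fetub by Grhpr (0.84), Hacd3 (0.84) and Ctbp1 (0.83). For Afp the closest named genes were Ikbke (0.72) and Pgm3 (0.72). Genes of the secreted lists were thus among the 3 closest for Alb, Gc, Afm and Ttr, and for none of the other 4 members. The 95th percentile of r over all genes lay between 0.33 for Afp and 0.50 for Fetub.

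Of the listed regulators of liver genes, 16 of 19 tested had a lower mean in GLU+GAL livers, where 49.2% of all tested genes did. The median was -0.096, and 2 were lower at an unadjusted limma p under 0.05, where 2.66% of all tested genes were. Within slides 1, 2 and 3 the mean of the list differed by -0.12, -0.18 and 0.05. Foxa3 differed by -0.32 ± 0.11 (SE; unadjusted limma p of 0.0052), Hnf4a by -0.16 ± 0.06 (SE; unadjusted limma p of 0.0227) and Nr5a2 by -0.13. Zbtb20, a repressor of Afp after birth, differed by -0.0043 ± 0.11 (SE), and Zhx2, the other such repressor, did not pass the filter on dim probes.

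Genes that, like Afp, are active in fetal liver and silenced after birth were mixed. Of 9 tested, 6 were higher in GLU+GAL livers, where 50.8% of all tested genes were. Their median was 0.057 in loess ratios, but -0.029 in the Cy5 channel with percentile scaling and -0.021 after quantile normalisation. The mouse GLU+GAL 4, whose pool channel stood apart, had the highest mean of this list. Cdkn1c differed by 0.17 (unadjusted limma p of 0.0666), Plagl1 by -0.15 and Gpc3 by 0.10. Of 11 tested genes that handle the carriers or their ligands, 9 were lower, where 49.2% of all tested genes were, with a median of -0.071. They were led by Fcgrt, the receptor that saves albumin from degradation, at -0.11, and Lrat, which esterifies retinol, at -0.16. Of the secretory machinery, the signal peptidase subunit Spcs3 differed by 0.15, Ssr1 by 0.12 and Sec63 by 0.09, all 3 higher in GLU+GAL livers and none at an unadjusted p under 0.05.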

How the data were processed

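Per the labels' protocols, the liver RNA of each mouse was labelled with both dyes, all Cy3 material was pooled on an equal molar basis, and this pool was hybridised with the Cy5 material of 1 mouse per array, without dye swap. The deposited scanner files hold spot intensity in both channels, and the submitters' processing notes name Agilent Feature Extraction 10.7.3.1. The authors also deposited a table of log2 values. With each spot's mean over the arrays subtracted, each column was closest, among the Cy5 channels, to that of its own array. It correlated negatively with the Cy3 channel of that array. How the table was scaled is not given in the sources used. The log10 ratio deposited in the scanner files was not used. Background was removed from mean signals by normexp (offset 50) and log2 ratios were normalised by loess in each array (limma 3.58.1, R 4.3.3, data.table version 1.17.8). Probes entered the test where Cy5 was well above background on 6 or more arrays of a diet (26675 of 56605 probes), with the brightest probe for each gene name. Diets were compared with lmFit and eBayes over 24 arrays, with Benjamini-Hochberg adjustment over all genes and a threshold of 0.05. The number of arrays limits the precision. Steps were tested on simulated data. Alternatives covered background correction, scaling, channel, filter, probe rule, slides and single mice left out.

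The members and lists were chosen with earlier results of these data known. The text names all 8 members, the 3 genes most like each, the 3 genes with the smallest p in each secreted, regulator, ligand handling, machinery and silenced list, and 4 regulators; 3 of these genes are not reported here. The deviations of same-numbered mice from their group means correlated at r from -0.38 to 0.52, with a median of 0.16 and 8 of 12 above 0.1. In 2 of 12 cases the GLU mouse was most like the GLU+GAL mouse of its own number. Whether replicate numbers pair mice was not settled. The main test was unpaired, and a fit with the replicate number as a block is given below. Marker lists for pancreas, kidney and adrenal, cholangiocytes and neutrophils had 3 of 4, 0 of 3, 1 of 4 and 3 of 5 tested genes lower. Plots were drawn with matplotlib 3.10.9 under Python 3.11.15.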

Additional observations from a re-analysis of the deposited data

How the results depend on the processing

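No member reached an adjusted limma p under 0.05 in any of 19 processing or slide alternatives or with any of the 24 mice left out; the lowest was 0.557, for Gc within slide 2. Over all genes the count of calls was 0 in each alternative except without GLU 3, where 1 gene, Zfp787, was called (range 0 to 1 with single mice left out). The member median was 0.019 with Agilent's processed signals, 0.018 in the authors' table, 0.0060 in the Cy5 channel with percentile scaling (chosen after seeing the data) and 0.017 within slide 1, against -0.089 in the main setting, and it was -0.00092 with median centring (4 of 8 lower), and lay between -0.110 and -0.067 with single mice left out. The secreted median was -0.030 in the authors' table, -0.037 in the Cy5 channel with percentile scaling, -0.049 with median centring and -0.203 within slide 2, and lay between -0.128 and -0.100 with single mice left out. The causes were not tested. Signs turned for single genes: with processed signals Ttr (0.0325), Rbp4 (0.14), Ahsg (0.0520) and Fetub (0.0052); with offset 16 Rbp4 (0.0070); with median centring Rbp4 (0.11), Ahsg (0.0095) and Fetub (0.0313); in the quantile-normalised Cy5 channel Alb (1.93e-05), Rbp4 (0.0602) and Fetub (0.016); with percentile scaling Afm (0.015), Rbp4 (0.0662) and Fetub (0.0429). In the authors' table they turned for Ttr (0.0067), Rbp4 (0.12), Ahsg (0.0325) and Fetub (0.0525), with array weights for Rbp4 (0.012), within slide 1 for Alb (0.0030), Rbp4 (0.0892), Gc (0.0388), Ahsg (0.0093) and Fetub (0.024), and within slide 3 for Afp (-0.0232) and Rbp4 (0.12). With 1 mouse left out the sign turned only for Rbp4, in 10 of 24 cases, over a range of -0.0292 to 0.0466. Pairs of members past the threshold numbered 2 in the quantile-normalised Cy5 channel, against 10. With the replicate number as a block, no gene passed, 1123 genes had an unadjusted p under 0.05 against 803, and the p of Alb was 0.0512 (adjusted 0.830). Aquantile scaling leaves ratios as they are and so changed nothing.

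Limits: 12 mice per diet and 3 slides bound the precision, and the dyes were not swapped. Loess ratios of the brightest unlisted genes had a median below 0 over all slides and in slide 2, and not in slides 1 and 3. In slide 3 their median of 0.0054 was still below the 0.025 of all tested genes. With median centring, which was not run within slides, their median over all slides was 0.018, on the other side of 0. Afp was near background, so its values limit only large differences.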
